A study of Sus scrofa with 8 samples.

Results

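Mesenchymal stem cells grown from adipose synovium, taken from the joint-facing surface of the infrapatellar fat pad (FP), were compared between the Angeln Saddleback (AS) and the German Landrace (DL) pig by gene expression. The comparison set the 2 AS-FP arrays against the 2 DL-FP arrays, 4 of the 8 arrays of the series, chosen by their labels. The AS-FP group came from Angeln Saddleback and the DL-FP group from German Landrace, and both groups came from the stifle joints of 3 male piglets per breed, 59 days old, were left undifferentiated and were pooled for RNA at passage 3. The other 4 arrays, AS-FS and DL-FS, hold cells of the fibrous synovium (FS) of the lateral joint capsule from the same piglets, and they served here for the spread between arrays and as context. Pools of 3 animals limit each group as a model of its breed, and no source used here states whether the 2 arrays of a group came from distinct cultures or animals. The p-values therefore reflect how far these arrays spread, and that spread may be technical.

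The synovium is the inner lining of the joint capsule, and its fibroblast-like cells make the matrix and the lubricants of the joint. Cells of this lining that adhere to plastic and keep dividing can be led to form fat, bone and cartilage cells, and those of the fat pad lie next to adipose tissue. The insulin-like growth factors, their binding proteins, BMP antagonists and the PI3K pathway are known to steer growth and lineage choice in such cells.

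Levels are given as the authors' log2 values from robust multichip averaging (RMA), in which a probe set stands for a transcript and a difference of 1 is a doubling of signal. Over the 8 arrays the medians lay between 4.58 and 4.64, the array medians of the 69 probe sets for background were 2.66 to 2.81, and Pearson's r between arrays from 0.982 to 0.99. DL-FP 1 stood apart in 9 hybridisation control probe sets, with a mean of 9.37 against 10.26 to 10.58 on the other 7 arrays, and the part of this in the results below was not tested. Of the positive surface markers, CD90, CD105, CD44 and CD29 (THY1, ENG, CD44 and ITGB1) read between 8.76 and 11.60 on the 4 FP arrays, while NT5E (CD73) was close to background at 3.22 and 3.17 in AS-FP, against 3.12 and 2.84 in DL-FP. THY1 stood at 10.90 and 10.89 in AS-FP, against 11.02 and 10.86 in DL-FP, and COL1A1, the fibrillar collagen of fibroblasts, at 12.39 and 12.34 in AS-FP, against 12.28 and 12.28 in DL-FP. PRG4, the lubricin of the lining, was low at 4.33 and 4.19 in AS-FP, against 4.86 and 4.30 in DL-FP. Of the negative markers PTPRC (CD45) stayed under 2.81 on all 4 FP arrays, but CD34 read 5.03 and 4.97 in AS-FP, against 5.56 and 5.21 in DL-FP. Markers of other cells were mixed. RGS5 of pericytes and MYF5 of muscle precursors stayed under 2.81, whereas ACTA2, smooth muscle actin, read 12.77 and 12.25 in AS-FP, against 12.80 and 12.34 in DL-FP, and MCAM, MYH11 and DES of the same cells and of muscle read between 4.82 and 6.32. The endothelial marker PECAM1 reached 6.42 and 6.22 in AS-FP, against 6.92 and 6.68 in DL-FP (difference -0.48, adjusted p = 0.163). The endothelial marker VWF went the other way, at 5.10 and 5.21 in AS-FP, against 4.90 and 5.02 in DL-FP (difference 0.20). CDH5 and KDR differed by -0.07 and 0.01, and none of these markers passed. None of 13 endothelial and 12 skeletal muscle genes passed the test described next, and 1 of 15 macrophage and leukocyte genes, 1 of 15 pericyte and smooth muscle genes and 1 of 13 B and plasma cell genes did. Of 12807 genes by their brightest probe set, 0.476% passed as higher in AS-FP and 0.914% as lower. Whether these small counts depart from that share was not tested. In RNA of a whole culture, fewer cells of a type and less RNA per cell cannot be told apart.

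Of 47722 probe sets, 394 (0.826%) passed the test between AS-FP and DL-FP, which was limma with the replicate number of the array as a block and an adjusted p of 0.1 or less. The signal was higher in AS-FP at 153 of them (0.321%) and lower at 241 (0.505%). These probe sets covered 80 named genes higher in AS-FP and 145 named genes lower in AS-FP, and 115 of them carried no gene name. The size of the 394 differences ran from 0.36 to 2.99 on the log2 scale with a median of 0.95, 1.08 for those higher in AS-FP and 0.86 for those lower, and 179 were at least 1. At 386 of the 394 the 2 AS-FP arrays lay on one side of the 2 DL-FP arrays, as they did at 33.3% of all probe sets. Without the block 101 probe sets passed (0.212%), 38 higher in AS-FP and 63 lower, and all 101 were among the 394. Without DL-FP 1 the count was 59, without DL-FP 2 it was 36, without AS-FP 1 it was 91 and without AS-FP 2 it was 104. With 2 arrays against 2, an exact permutation test of a single gene cannot go below p = 0.333, so all p-values below come from the limma fit with Benjamini-Hochberg adjustment.

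**Figure D1:**
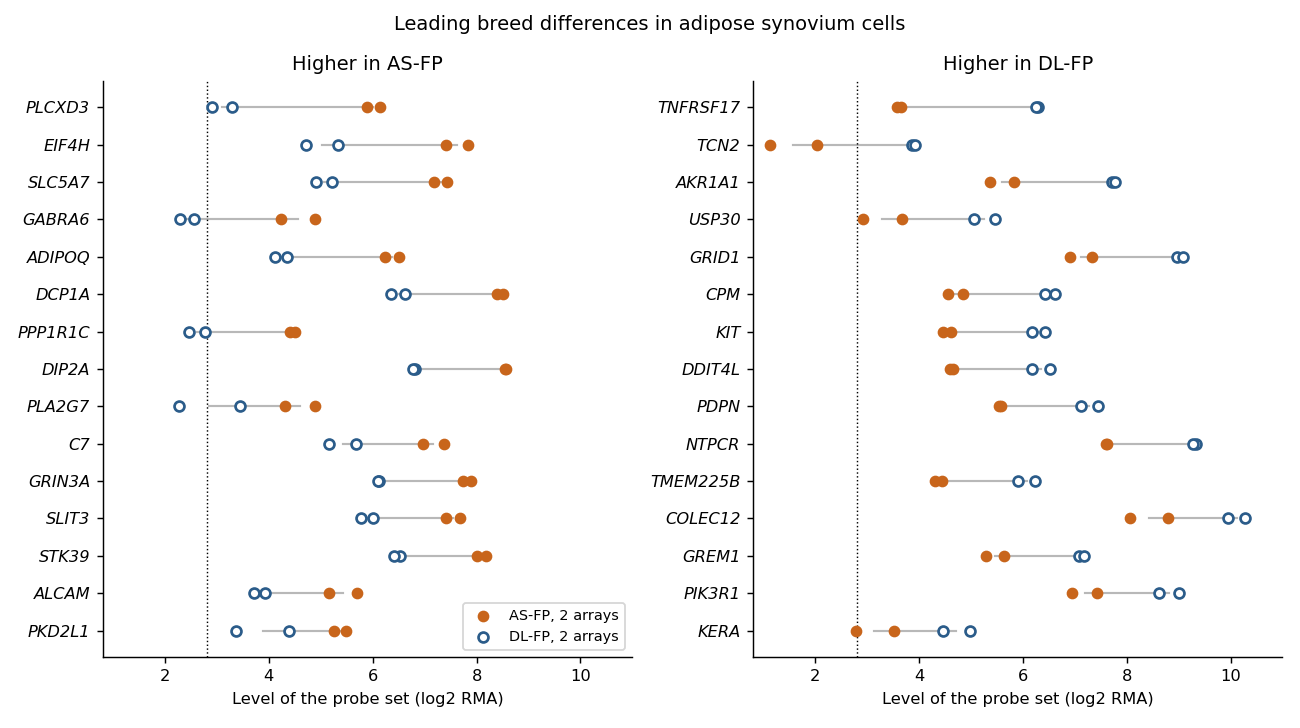
Level (log2 RMA) of the 15 genes with the largest differences in each direction on each array, with AS-FP arrays as filled points, DL-FP arrays as open points, a grey line between the group means and a dotted line at the highest background median, 2.81. All 30 genes were chosen to have both arrays of one breed above both arrays of the other. DL-FP in GABRA6 and PPP1R1C and AS-FP in TCN2 had means below that line.

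Among the genes higher in AS-FP were several known from nerve cells. SLC5A7, which carries choline into cholinergic nerve endings, stood at 7.43 and 7.18 in AS-FP, against 5.22 and 4.91 in DL-FP, a log2 difference of 2.24 ± 0.11 (SE, adjusted p = 0.00142), or 4.73-fold. GRIN3A, a subunit of NMDA-type glutamate receptors, was higher in AS-FP with both of its probe sets. The one with the larger difference read 7.38 and 7.45 in AS-FP, against 5.30 and 5.19 in DL-FP, a difference of 2.17 ± 0.16 (adjusted p = 0.00214), and the other 7.73 and 7.89 in AS-FP, against 6.13 and 6.11 in DL-FP, a difference of 1.69 ± 0.11 (adjusted p = 0.00199). At these 3 probe sets the arrays of a breed lay far closer together than the breeds did. SLC5A7 and GRIN3A were among the leading genes, chosen for large differences with the arrays apart, so this is a description. A second probe set of SLC5A7 did not pass (difference 0.15, adjusted p = 0.88), so its difference rests on 1 probe set. GABRA6, a subunit of GABA-A receptors, read 4.88 and 4.23 in AS-FP but 2.55 and 2.29 in DL-FP, where it was not above background, so that the difference is at least 1.87 (adjusted p = 0.0147). GRID1, of the delta family of glutamate receptors, went the other way at 6.90 and 7.33 in AS-FP, against 8.96 and 9.09 in DL-FP (difference -1.91 ± 0.15, adjusted p = 0.00292). Of 32 genes of neurotransmitter receptors and transporters that the array measured, 4 were higher in AS-FP (the fourth is SLC6A15, an amino acid transporter, by 1.05, lost without the block at an adjusted p of 0.196) and 1 was lower, and the median difference was 0.05. For comparison with this and the other lists, of 12807 genes represented by their brightest probe set 0.476% were higher in AS-FP and 0.914% lower. Their median difference was -0.02. The lists were chosen with earlier results of these data known, so their counts are a description. The calls of SLC5A7, GRIN3A and GRID1 held without each of the 8 arrays in turn, and that of GABRA6 was lost without DL-FP 1, DL-FP 2 or AS-FP 1 (adjusted p 0.118 to 0.174).

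Of the adipocyte lineage genes, ADIPOQ and PLIN2 were higher in AS-FP. ADIPOQ, the fat cell hormone adiponectin, read 6.51 and 6.23 in AS-FP, against 4.35 and 4.12 in DL-FP, a difference of 2.14 ± 0.16 (adjusted p = 0.00292), and its brightest probe set 7.33 and 7.23 in AS-FP, against 6.51 and 6.39 in DL-FP (difference 0.83 ± 0.15, adjusted p = 0.0841). PLIN2, which coats lipid droplets, read 8.88 and 8.85 in AS-FP, against 8.34 and 8.20 in DL-FP (difference 0.60 ± 0.08, adjusted p = 0.0358). The arrays of the breeds did not overlap for either gene. LPL, the lipase that frees fatty acids from blood lipids, passed the test with 1 of its 4 probe sets, at 4.47 and 4.88 in AS-FP, against 3.27 and 3.27 in DL-FP (difference 1.4 ± 0.20, adjusted p = 0.0363). The remaining 3 probe sets of LPL differed by 0.77, 0.42 and 0.62 and did not pass. FABP4, a carrier of fatty acids inside fat cells, read 5.74 and 5.75 in AS-FP, against 7.03 and 6.35 in DL-FP, a difference of -0.94 ± 0.23 that did not pass (adjusted p = 0.19). Of 26 adipocyte lineage genes 2 were higher in AS-FP by their brightest probe set, none was lower, and the median was 0.11. The mean level over the list was 6.72 and 6.72 on the AS-FP arrays and 6.59 and 6.50 on the DL-FP arrays. Of the markers of mature fat cells, PLIN1 read 6.02 and 5.84 in AS-FP, against 5.75 and 5.61 in DL-FP. LEP read 3.39 and 3.74 in AS-FP, against 3.20 and 3.22 in DL-FP. CIDEC overlapped, at 3.56 and 4.25 in AS-FP, against 3.84 and 3.76 in DL-FP (difference 0.10). Their other probe sets differed by 0.18 to 0.39 for PLIN1, -0.18 for LEP and -1.02 and 0.03 for CIDEC. None of these probe sets passed. Whether a share of fat cells has a part in the result was not tested. The call of the ADIPOQ probe set with the lowest adjusted p held without each array, while those of its brightest probe set, PLIN2 and LPL were lost without any 1 of the 4 FP arrays (adjusted p 0.149 to 0.425), and those of PLIN2 and the brightest ADIPOQ probe set also without the block (0.18 and 0.275).

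C7, a component of the complement attack complex, read 6.96 and 7.38 in AS-FP, against 5.16 and 5.68 in DL-FP, a difference of 1.75 ± 0.13 (adjusted p = 0.00292). SLIT3, a secreted ligand of ROBO receptors in axon guidance, read 7.68 and 7.42 in AS-FP, against 6.0 and 5.77 in DL-FP, a difference of 1.66 ± 0.13 (adjusted p = 0.00292). PLA2G7, the enzyme that breaks down platelet-activating factor, read 4.88 and 4.31 in AS-FP, against 3.44 and 2.26 in DL-FP (difference 1.75 ± 0.33, adjusted p = 0.0922). Of these 3 secreted proteins, C7 and SLIT3 stood clear of background in both breeds, and PLA2G7 on DL-FP 2 did not. PTX3, a soluble pattern recognition protein, was brighter at 10.48 and 9.87 in AS-FP, against 9.65 and 8.94 in DL-FP, and here the array with replicate number 1 read higher in both breeds. Its difference was 0.88 ± 0.08 with the block (adjusted p = 0.00658) and did not pass without it (adjusted p = 0.707). ALDH1A3, which makes retinoic acid, read 10.17 and 10.31 in AS-FP, against 9.36 and 9.22 in DL-FP (difference 0.95 ± 0.13, adjusted p = 0.0363), and did not pass without the block (adjusted p = 0.132). The calls of C7 and SLIT3 held without each array. Those of PTX3 without DL-FP 2 (adjusted p = 0.124), of ALDH1A3 without DL-FP 2 or either AS-FP array (0.208 to 0.302) and of PLA2G7 without any FP or AS-FS array (0.144 to 0.535) or without the block (0.267) were lost.

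The largest difference of a named gene was that of PLCXD3, a phospholipase C-like protein, at 5.89 and 6.14 in AS-FP, against 3.29 and 2.90 in DL-FP. Its log2 difference was 2.91 ± 0.28 (adjusted p = 0.00774), or 7.54-fold. DL-FP came close to background here, so the fold value rests on a level near background. Of its other 2 probe sets, 1 passed with a difference of 1.93 (adjusted p = 0.0248) and 1 did not, at 0.18. EIF4H, a helper of the helicase that opens messenger RNA for translation, read 7.41 and 7.83 in AS-FP, against 4.71 and 5.33 in DL-FP (difference 2.61 ± 0.34, adjusted p = 0.026). DCP1A, part of the complex that removes the cap of messenger RNA, read 8.40 and 8.50 in AS-FP, against 6.63 and 6.36 in DL-FP (difference 1.96 ± 0.13, adjusted p = 0.00199). In these 3 genes the lower AS-FP array stood well above the higher DL-FP array, which follows from how the leading genes were chosen. DIP2A read 8.56 and 8.55 in AS-FP, against 6.82 and 6.78 in DL-FP (difference 1.76 ± 0.10, adjusted p = 0.00188), the tightest pairs among the leading genes higher in AS-FP. STK39, a kinase that regulates ion cotransporters, read 8.18 and 8.0 in AS-FP, against 6.52 and 6.40 in DL-FP (difference 1.63 ± 0.11, adjusted p = 0.00199). PPP1R1C, an inhibitor of protein phosphatase 1, read 4.50 and 4.40 in AS-FP and was not above background in DL-FP at 2.46 and 2.77, a difference of at least 1.73 (adjusted p = 0.0723). ALCAM, the adhesion molecule CD166 that is used as a surface marker of mesenchymal stem cells, read 5.69 and 5.16 in AS-FP, against 3.92 and 3.72 in DL-FP (difference 1.60 ± 0.20, adjusted p = 0.0212). It was the 1 of 14 surface marker genes that passed by its brightest probe set. CD44 passed at another probe set with overlapping arrays, 9.26 and 8.52 in AS-FP, against 8.57 and 8.03 in DL-FP (difference 0.59, adjusted p = 0.0696). This CD44 probe set did not pass without the block (adjusted p = 0.89). The calls of DCP1A, DIP2A and STK39 held without each array, that of PLCXD3 was lost without DL-FP 2 (adjusted p = 0.124), that of ALCAM without either DL-FP array or AS-FP 1 (0.15 to 0.233), and those of EIF4H and PPP1R1C without any FP array (0.113 to 0.394). PPP1R1C also did not pass without the block (adjusted p = 0.134).

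PSMB8, a catalytic subunit of the immunoproteasome that cuts peptides for MHC class I, was higher in AS-FP with 4 of its 8 probe sets, by 1.15 to 1.61. The brightest read 9.64 and 9.65 in AS-FP, against 8.30 and 7.77 in DL-FP, a difference of 1.61 ± 0.18 (adjusted p = 0.0147). The other 15 genes of the immunoproteasome and MHC class I list did not pass, and the median of the list was 0.03. In the interferon response list OAS1, which makes the activator of RNase L, read 5.27 and 5.70 in AS-FP, against 4.48 and 3.97 in DL-FP (difference 1.26 ± 0.23, adjusted p = 0.0922), and was the 1 of 26 genes that passed, with a list median of -0.09. OAS2, its relative, passed with a probe set other than the brightest at 8.79 and 8.66 in AS-FP, against 8.23 and 8.14 in DL-FP (difference 0.54 ± 0.08, adjusted p = 0.0466). ABCB1 and ABCG2, the export pumps for drugs and dyes, were both higher in AS-FP. ABCB1 read 9.82 and 9.71 in AS-FP, against 9.13 and 9.08 in DL-FP (difference 0.66 ± 0.09, adjusted p = 0.0347), and ABCG2 7.44 and 7.39 in AS-FP, against 6.75 and 6.45 in DL-FP (difference 0.82 ± 0.11, adjusted p = 0.0359). The brightest PSMB8 probe set lost its call without DL-FP 2 or either AS-FP array (adjusted p 0.109 to 0.145), OAS1 without each of the 8 arrays (0.113 to 0.546), and OAS2, ABCB1 and ABCG2 without any FP array (0.13 to 0.334). OAS1, OAS2, ABCB1 and ABCG2 did not pass without the block (adjusted p 0.171, 0.275, 0.12 and 0.111).

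Several receptors and surface proteins were among the genes lower in AS-FP. TNFRSF17, the receptor by which plasma cells take survival signals, read 3.65 and 3.58 in AS-FP, against 6.29 and 6.25 in DL-FP, a log2 difference of -2.66 ± 0.18 (adjusted p = 0.00199), a 6.31-fold difference. The other 12 genes measured of the B and plasma cell list did not pass; CD79A of the B cell receptor read 7.01 and 6.87 in AS-FP, against 7.19 and 6.75 in DL-FP, and MS4A1 (CD20) 2.91 and 3.16 in AS-FP, against 2.63 and 2.42 in DL-FP. KIT, the receptor of stem cell factor, read 4.46 and 4.61 in AS-FP, against 6.17 and 6.42 in DL-FP (difference -1.76 ± 0.16, adjusted p = 0.00629). PDPN, podoplanin of the synovial lining, read 5.53 and 5.58 in AS-FP, against 7.12 and 7.44 in DL-FP (difference -1.72 ± 0.12, adjusted p = 0.00214), and was the 1 of 13 lining fibroblast genes that passed. COLEC12, a scavenger receptor with a collagen-like stalk, read 8.07 and 8.80 in AS-FP, against 9.96 and 10.27 in DL-FP, a difference of -1.68 ± 0.12 (adjusted p = 0.00214) that just missed the threshold without the block (adjusted p = 0.106). In each of these 4 genes the breeds lay further apart than any pair of arrays of a breed. They were chosen for large passing differences with the arrays apart, so this is a description. CPM, a carboxypeptidase of the cell surface, read 4.55 and 4.85 in AS-FP, against 6.62 and 6.42 in DL-FP (difference -1.81 ± 0.19, adjusted p = 0.0105). AGTR1, the main angiotensin receptor, read 7.37 and 7.29 in AS-FP, against 8.72 and 8.26 in DL-FP (difference -1.16 ± 0.11, adjusted p = 0.00756), and missed the threshold without the block (adjusted p = 0.104). CD86, a costimulatory molecule of antigen-presenting cells, read 7.94 and 8.05 in AS-FP, against 9.02 and 8.58 in DL-FP (difference -0.80 ± 0.14, adjusted p = 0.074). CD86 was the 1 macrophage and leukocyte gene that passed, while CD14 read 6.25 and 6.41 in AS-FP, against 6.21 and 6.32 in DL-FP, and CD163 3.29 and 3.01 in AS-FP, against 3.12 and 2.80 in DL-FP. The list as a whole averaged 4.73 and 4.69 on the AS-FP arrays and 4.63 and 4.67 on the DL-FP arrays. The calls of TNFRSF17, PDPN and COLEC12 held without each array, that of KIT was lost without DL-FP 2 (adjusted p = 0.124), that of AGTR1 without DL-FP 1 (0.112), that of CPM without DL-FP 1 or AS-FP 1 (0.108 and 0.153), and that of CD86 without either DL-FP array, AS-FP 1 or either AS-FS array (0.118 to 0.394) or the block (0.406).

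Other leading genes lower in AS-FP follow. NTPCR, a nucleoside triphosphatase, read 7.62 and 7.61 in AS-FP, against 9.33 and 9.28 in DL-FP, a difference of -1.69 ± 0.11 (adjusted p = 0.00199). PIK3R1, the regulatory subunit p85 of PI3K, read 6.95 and 7.42 in AS-FP, against 8.63 and 9.01 in DL-FP at one probe set, a difference of -1.64 ± 0.10 (adjusted p = 0.00199). Its brightest probe set, at 10.32 and 10.63 in AS-FP, against 10.34 and 10.80 in DL-FP, differed by -0.10 ± 0.08 (adjusted p = 0.823). DDIT4L, an inhibitor of mTOR signalling, read 4.66 and 4.59 in AS-FP, against 6.52 and 6.18 in DL-FP (difference -1.73 ± 0.21, adjusted p = 0.0212), and was the 1 of 26 PI3K, JAK and SOCS genes that passed by its brightest probe set. AKR1A1, an aldehyde reductase, read 5.36 and 5.82 in AS-FP, against 7.71 and 7.78 in DL-FP (difference -2.15 ± 0.25, adjusted p = 0.0156). TMEM225B, a membrane protein, read 4.45 and 4.31 in AS-FP, against 6.23 and 5.90 in DL-FP (difference -1.69 ± 0.14, adjusted p = 0.00484). All 5 genes were among the leading genes, which were chosen with the arrays of the breeds apart. USP30, which removes ubiquitin at mitochondria, came close to background on AS-FP 1, with 2.91 and 3.67 in AS-FP, against 5.05 and 5.46 in DL-FP (difference -1.96 ± 0.22, adjusted p = 0.0147). TCN2, the carrier of vitamin B12 in blood, passed at 1 of 3 probe sets, which was not above background in AS-FP at 2.04 and 1.12, against 3.86 and 3.93 in DL-FP, so that its fitted difference of -2.31 ± 0.39 (adjusted p = 0.064) holds only a bound, -1.17 or further below 0. HMOX1, which breaks down haem, read 10.93 and 10.90 in AS-FP, against 11.66 and 11.85 in DL-FP (difference -0.84 ± 0.12, adjusted p = 0.039). The calls of NTPCR, TMEM225B and the PIK3R1 probe set held without each array, that of USP30 was lost without either DL-FP array or AS-FP 1 (adjusted p 0.109 to 0.217), and those of DDIT4L, AKR1A1, TCN2 and HMOX1 without any FP array (0.114 to 0.468). TCN2 and HMOX1 did not pass without the block (adjusted p 0.119 and 0.193).

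Of 16 genes of the insulin-like growth factor axis, 2 were higher and 3 lower in AS-FP, with a median difference of -0.09. Over all genes by their brightest probe set 0.476% were higher and 0.914% lower. The list was chosen with earlier results of these data known, so its count is a description. IGFBP2, a binding protein that holds IGFs outside the cell, read 8.94 and 9.29 in AS-FP, against 10.48 and 10.61 in DL-FP, a difference of -1.43 ± 0.08 (adjusted p = 0.00188). IGFBP4, another binding protein, read 9.23 and 9.75 in AS-FP, against 8.23 and 8.65 in DL-FP (difference 1.05 ± 0.10, adjusted p = 0.00645). GHR, the growth hormone receptor, read 7.0 and 7.18 in AS-FP, against 6.11 and 6.36 in DL-FP (difference 0.86 ± 0.14, adjusted p = 0.0555). The binding proteins thus stood on both sides, with IGFBP5 lower in AS-FP by its brightest probe set (difference -0.56, adjusted p = 0.0891). IGF2, the growth factor itself, was near the top of the scale at 11.71 and 11.80 in AS-FP, against 12.17 and 12.17 in DL-FP (difference -0.42 ± 0.07, adjusted p = 0.0732). It was lower in AS-FP with 3 of its 14 probe sets, by up to 1.49, and the remaining 11 ran from -0.72 to 0.09 without passing. The call of IGFBP2 held without each array, that of IGFBP4 was lost without DL-FP 2 (adjusted p = 0.124), that of GHR without any FP array (0.264 to 0.386) and that of the brightest IGF2 probe set without any FP or AS-FS array (0.152 to 0.421). Without the block IGFBP4, GHR, IGFBP5 and IGF2 did not pass (adjusted p 0.321, 0.236, 0.406 and 0.453).

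GREM1, a secreted antagonist of BMPs, read 5.63 and 5.28 in AS-FP, against 7.09 and 7.18 in DL-FP, a difference of -1.68 ± 0.15 (adjusted p = 0.00574), and was the 1 of 32 BMP and TGF-beta genes that passed. VEGFC, a growth factor of lymphatic vessels, read 6.96 and 7.29 in AS-FP, against 8.08 and 8.20 in DL-FP (difference -1.01 ± 0.11, adjusted p = 0.0105). Both growth regulators were thus lower in AS-FP on either array, for which GREM1, a leading gene, had been chosen. PRKAR2B, a regulatory subunit of the cAMP-dependent kinase, read 8.20 and 8.01 in AS-FP, against 7.16 and 7.11 in DL-FP (difference 0.98 ± 0.10, adjusted p = 0.0105). The phosphodiesterases, which break down cyclic nucleotides, went both ways. PDE7B read 7.63 and 7.91 in AS-FP, against 6.38 and 6.64 in DL-FP (difference 1.26 ± 0.11, adjusted p = 0.00484), whereas PDE1C read 6.02 and 5.65 in AS-FP, against 7.60 and 7.03 in DL-FP (difference -1.48 ± 0.22, adjusted p = 0.0406). ADRA2A, an adrenaline receptor that lowers cAMP, was higher in AS-FP at a probe set other than the brightest, 4.83 and 4.95 in AS-FP, against 3.39 and 3.40 in DL-FP (difference 1.49 ± 0.18, adjusted p = 0.0193). FZD4, a Wnt receptor, read 7.42 and 7.87 in AS-FP, against 7.97 and 8.42 in DL-FP (difference -0.55 ± 0.10, adjusted p = 0.0883), and was the 1 of 36 Wnt genes that passed. The calls of GREM1 and PDE7B were lost without DL-FP 2 (adjusted p 0.124 and 0.105), those of VEGFC and PRKAR2B without either DL-FP array or AS-FP 1 (0.109 to 0.153), those of PDE1C and ADRA2A without any FP array (0.116 to 0.295), and that of FZD4 without each of the 8 arrays (0.105 to 0.541). Without the block PDE7B, PDE1C and FZD4 did not pass (adjusted p 0.101, 0.185 and 0.739).

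Among 23 collagens and small proteoglycans, 2 were lower and none was higher, among 26 matricellular and elastic fibre genes 3 were lower, and among 32 matrix proteases and inhibitors 2 were lower, with list medians of 0.03, -0.08 and -0.06. Over all genes by their brightest probe set, 117 were lower and 61 higher in AS-FP, so lower calls were the more common ones in general, and the share among matrix genes was not tested. KERA, the proteoglycan keratocan, read 3.51 and 2.78 in AS-FP, against 4.98 and 4.47 in DL-FP (difference -1.58 ± 0.28, adjusted p = 0.077), near background in AS-FP. PRELP, a proteoglycan that ties basement membranes to connective tissue, read 12.30 and 12.25 in AS-FP, against 12.68 and 12.65 in DL-FP (difference -0.39 ± 0.06, adjusted p = 0.0541). A low and a high proteoglycan thus both kept the breeds apart, for which KERA, a leading gene, had been chosen. TNXB, a tenascin of the skin and tendon, read 7.90 and 8.11 in AS-FP, against 8.50 and 8.79 in DL-FP (difference -0.64 ± 0.08, adjusted p = 0.0271), and TNC, its relative in wounds and joints, passed with 2 probe sets other than the brightest (differences -0.57 and -0.61). HPSE, which cuts heparan sulphate, read 4.91 and 4.85 in AS-FP, against 6.27 and 6.14 in DL-FP (difference -1.32 ± 0.14, adjusted p = 0.0125). GSN, gelsolin, which cuts actin filaments, was lower in AS-FP with all 3 of its probe sets, by 0.99 to 1.23 in size, and the brightest read 9.41 and 9.31 in AS-FP, against 10.52 and 10.19 in DL-FP (difference -1.0 ± 0.10, adjusted p = 0.00926). Laminin chains of the basement membrane differed in opposite directions. LAMA2 read 8.68 and 8.81 in AS-FP, against 7.72 and 8.01 in DL-FP (difference 0.88 ± 0.09, adjusted p = 0.0105), and LAMA3 6.50 and 6.53 in AS-FP, against 7.16 and 7.51 in DL-FP (difference -0.83 ± 0.12, adjusted p = 0.0359). The same held for cartilage genes, of which 1 of 16 was higher and 1 lower in AS-FP: COL11A1, a collagen that seeds cartilage fibrils, read 7.35 and 6.75 in AS-FP, against 6.12 and 5.69 in DL-FP (difference 1.15 ± 0.13, adjusted p = 0.0158), and CHAD, a cartilage cell adhesion protein, 6.43 and 6.49 in AS-FP, against 8.02 and 7.53 in DL-FP (difference -1.32 ± 0.17, adjusted p = 0.0248). Of these genes LAMA2, the brightest GSN probe set, HPSE and CHAD lost their calls without 2 or 3 of the FP arrays (adjusted p 0.109 to 0.169), and LAMA3, COL11A1, TNXB, the TNC probe sets, PRELP and KERA without any FP array, the last 2 and 1 TNC probe set also without either AS-FS array (0.115 to 0.411 over these genes). Without the block KERA, PRELP, TNXB, LAMA2, LAMA3, COL11A1 and both TNC probe sets did not pass (adjusted p 0.132 to 0.792).

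**Figure D2:**
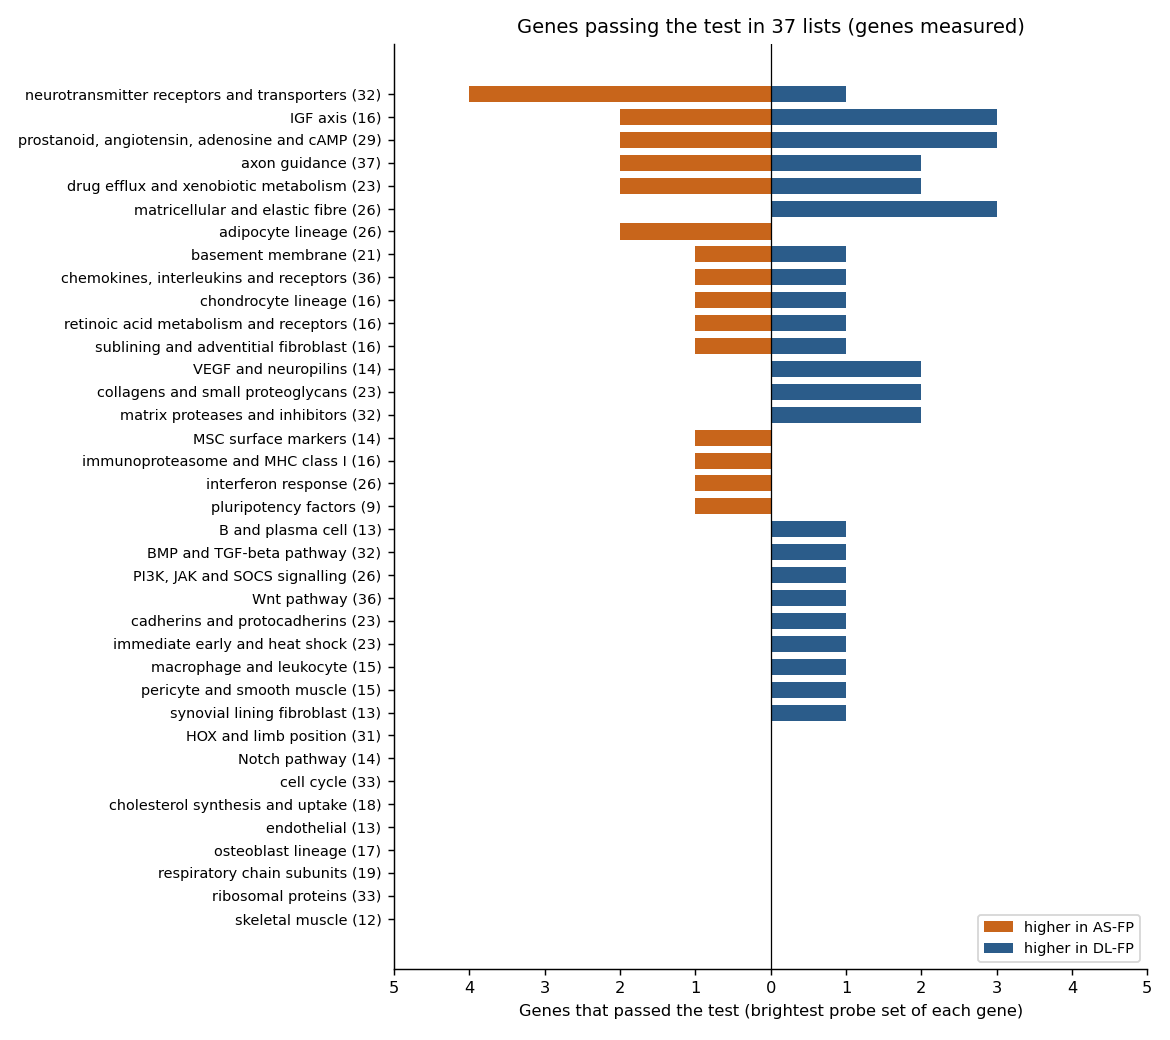
Number of genes in each of 37 lists that passed the test between AS-FP and DL-FP, counted by the brightest probe set of each gene, with genes higher in AS-FP to the left and genes higher in DL-FP to the right and the number of genes measured in parentheses. The neurotransmitter list held the most genes higher in AS-FP, 4 of 32, and 9 lists held none in either direction. Over all 12807 genes 0.476% were higher in AS-FP and 0.914% lower. The lists were chosen with earlier results of these data known, so their order is a description.

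Other lists showed few calls. None of 33 cell cycle genes passed (range of differences -0.50 to 0.51, median 0.12), although their mean level was 7.64 and 7.18 on the AS-FP arrays and 7.60 and 7.04 on the DL-FP arrays, higher with replicate number 1 in both breeds. The same count of 0 was found for 17 osteoblast lineage genes (-0.56 to 0.61), 31 HOX and limb position genes (-0.58 to 0.49), 14 Notch genes (-0.62 to 0.25), 18 cholesterol synthesis and uptake genes (-0.08 to 0.34) and 19 respiratory chain subunits (-0.35 to 0.14). Of the 33 ribosomal protein genes none passed by its brightest probe set, and RPL19, which many probe sets name, passed at 1 of them (difference -1.07, adjusted p = 0.064, lost without any FP or AS-FS array at 0.101 to 0.453 and without the block at 0.384). In the cytokine list of 36 genes PTX3 was higher in AS-FP and CCL11, a chemokine that draws eosinophils, was lower, at 6.43 and 6.06 in AS-FP, against 7.22 and 7.09 in DL-FP (difference -0.91 ± 0.13, adjusted p = 0.0402, lost without any FP array at 0.146 to 0.361 and without the block at 0.406). In the axon guidance list of 37 genes SLIT3 and SLIT2 were higher in AS-FP and NTN1 and NRP2 lower. NRP1, the relative of NRP2 and also a coreceptor of semaphorins and VEGF, was higher in AS-FP at a probe set other than the brightest, with 8.16 and 7.78 in AS-FP, against 7.52 and 7.20 in DL-FP (difference 0.61 ± 0.10, adjusted p = 0.0631). SLIT2 read 8.66 and 8.48 in AS-FP, against 8.21 and 7.75 in DL-FP (difference 0.59 ± 0.11, adjusted p = 0.0976), NTN1, a netrin, 7.53 and 7.51 in AS-FP, against 8.08 and 8.09 in DL-FP (difference -0.56 ± 0.10, adjusted p = 0.0661), and NRP2, a coreceptor of semaphorins and VEGFC, 9.20 and 9.08 in AS-FP, against 9.64 and 9.52 in DL-FP (difference -0.44 ± 0.08, adjusted p = 0.0866). The calls of NRP1, SLIT2, NTN1 and NRP2 were lost without any FP or AS-FS array (adjusted p 0.111 to 0.521) and without the block (0.227 to 0.82).

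Another 6 list members that passed were lower in AS-FP. Apart from these 6, the protocadherin PCDH19 was higher in AS-FP at a probe set other than the brightest (difference 0.91, adjusted p = 0.0575). It did not pass without the block (adjusted p = 0.329). SYNPO2, an actin-binding protein of muscle and the 1 pericyte and smooth muscle gene that passed, read 8.0 and 7.99 in AS-FP, against 8.91 and 8.68 in DL-FP (difference -0.80 ± 0.11, adjusted p = 0.0273), while RGS5 was under background as above. LTBP2, a protein of elastic fibres, read 9.74 and 9.62 in AS-FP, against 10.20 and 10.09 in DL-FP (difference -0.46 ± 0.08, adjusted p = 0.0859). RARA, a retinoic acid receptor, read 8.86 and 9.0 in AS-FP, against 9.36 and 9.49 in DL-FP (difference -0.50 ± 0.08, adjusted p = 0.0652). EPHX1, which opens epoxides of xenobiotics, read 8.92 and 8.95 in AS-FP, against 9.51 and 9.63 in DL-FP (difference -0.64 ± 0.10, adjusted p = 0.0561). PCDH17, a protocadherin of cell adhesion, read 7.48 and 7.74 in AS-FP, against 8.40 and 8.49 in DL-FP (difference -0.83 ± 0.13, adjusted p = 0.044). These 5 genes kept the breeds apart, whereas in DUSP5, a phosphatase of the ERK kinases, the arrays overlapped at 9.22 and 8.35 in AS-FP, against 9.67 and 8.77 in DL-FP (difference -0.44 ± 0.08, adjusted p = 0.0915). All 6 calls were lost without any FP array (adjusted p 0.101 to 0.504) and without the block (0.144 to 0.996).

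Of 15 genes that the article follows for breed or by PCR, 5 passed in the FP arrays. IGFBP4, IGF2, PRKAR2B and PIK3R1 (at 1 of its probe sets) are described above. NANOG, a factor of pluripotent cells, read 7.35 and 6.95 in AS-FP, against 6.46 and 6.36 in DL-FP, a difference of 0.74 ± 0.12 (adjusted p = 0.0523) that was lost without any FP array (0.149 to 0.322) and without the block (0.267). Its partners did not pass, POU5F1 at 4.69 and 4.80 in AS-FP, against 4.69 and 4.93 in DL-FP (difference -0.07, 95% interval -0.45 to 0.32), and SOX2 at 4.42 and 5.01 in AS-FP, against 4.82 and 4.71 in DL-FP (difference -0.05, interval -0.69 to 0.58). NANOG was the 1 of 9 pluripotency genes that passed. PIK3CA, the catalytic subunit of PI3K, differed by -0.15 (interval -0.43 to 0.12), SOCS5, an inhibitor of cytokine signalling, by -0.40 (-0.62 to -0.18, adjusted p = 0.179) and FGF2, a growth factor for stem cells, by -0.31 (-0.65 to 0.03). The secreted Wnt modulators SFRP1, RSPO1, RSPO3 and DKK2 differed by 0.05 (-0.23 to 0.33), -0.03 (-0.32 to 0.25), 0.44 (-0.11 to 0.99) and 0.26 (-0.07 to 0.59). None of these 7 genes passed the test, and the intervals are not adjusted for the number of genes.

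**Figure D3:**
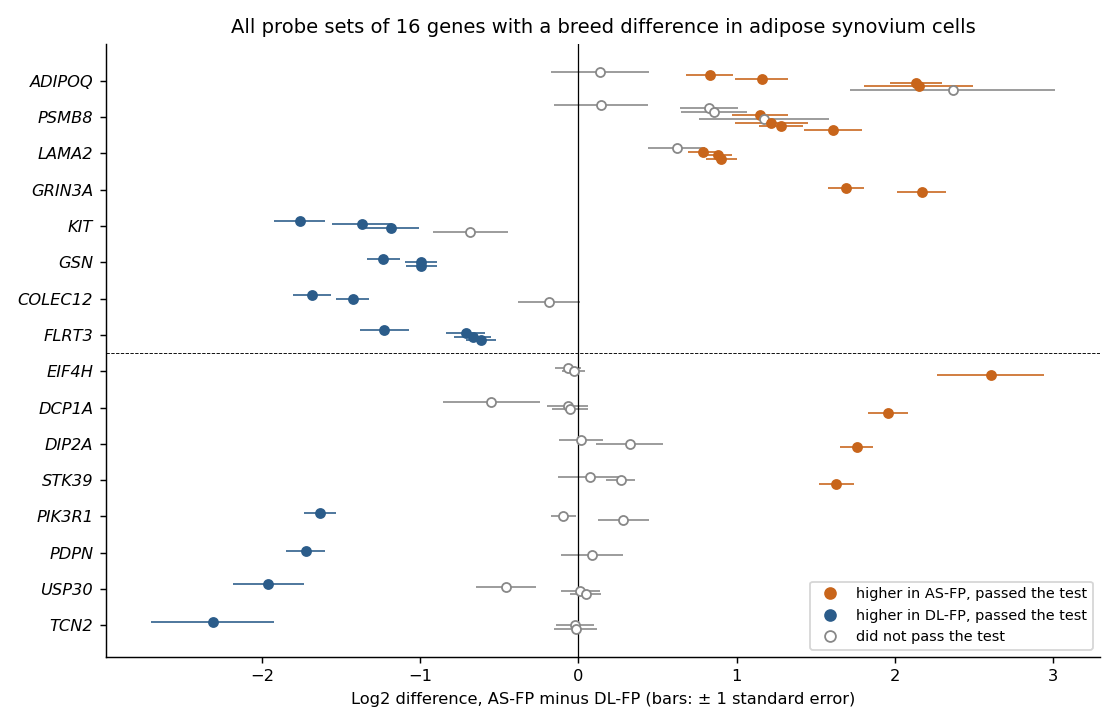
Log2 difference, AS-FP minus DL-FP, of every probe set of 16 genes, with bars of 1 standard error; coloured points passed the test and open points did not. Above the dashed line, genes such as GRIN3A, GSN and FLRT3 moved with all their probe sets; below it, genes such as EIF4H and DCP1A moved with 1 probe set while the others stayed within 0.55 of 0.

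Where a gene had several probe sets, these often told the same direction but seldom the same size. Of 220 named genes that passed with arrays apart, 134 had another probe set whose mean was above background. In 86 of the 134 the median of the others moved in the same direction by more than 0.25, in 48 it stayed within 0.25 of 0, and in 0 it moved the opposite way by more than 0.25. The median over these genes was 0.85 for the probe set with the lowest adjusted p and 0.42 for the others. Probe sets of a gene share arrays and RNA, so this describes the measurement and is not a replicate. Taken up after the values were seen, 12 genes had at least 3 probe sets that passed in one direction, of 2957 genes with 3 or more probe sets, and no gene had probe sets that passed in both directions. The 5 genes higher in AS-FP were ADIPOQ, PSMB8, LAMA2, DCLK1, a microtubule-binding kinase (0.83 to 1.15), and SGCD, a sarcoglycan of the dystrophin complex (0.65 to 0.80). The 7 genes lower in AS-FP were KIT, GSN, IGF2, FLRT3, an adhesion protein that binds latrophilins (-1.23 to -0.61), HMCN1, a giant matrix protein (-0.99 to -0.79), ENTPD7, a nucleotide-splitting enzyme (-0.81 to -0.69), and ADAMTSL3, a matrix glycoprotein (-0.74 to -0.48). In contrast, the other 2 probe sets of EIF4H differed by -0.06 and -0.03, the other 3 of DCP1A by -0.55 to -0.05, and both others of TCN2 by -0.02, so that the differences of these genes rest on 1 probe set each. The same was seen in PDPN, with 0.09 at its other probe set, and in PIK3R1, with -0.10 and 0.28. The probe sets that did not pass differed by -0.19 and -0.01 for PRKAR2B, -0.22 for ALCAM, 0.08 for PDE7B, 0.02 and 0.32 for DIP2A, 0.07 and 0.27 for STK39, -0.46 to 0.05 for USP30 and -0.06 and 0.46 for C7, so these calls too rest on 1 probe set each. This list is not complete. The other probe sets differed by -0.10 for SYNPO2, -0.14 to 0.03 for LTBP2 and -0.20 to 0.08 for DUSP5. They differed by 0.20 for PKD2L1, 0.08 to 0.96 for PLA2G7 and -0.39 and -0.24 for AKR1A1, and none of them passed. All DCLK1, FLRT3 and ADAMTSL3 probe sets lost their calls without any FP array (adjusted p 0.107 to 0.504), as did ENTPD7 (0.125 to 0.401), while the SGCD and HMCN1 probe sets lost theirs without 2 to 4 of the FP arrays or more (0.109 to 0.533). Without the block all 4 FLRT3 (0.133 to 0.792), all 3 ADAMTSL3 (0.162 to 0.273) and all 3 SGCD probe sets that had passed (0.136 to 0.453), 2 of 3 of DCLK1 (0.136 and 0.267), 2 of 3 of ENTPD7 (0.141 and 0.211) and 1 of 3 of HMCN1 (0.358) did not pass.

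The same contrast in fibrous synovium, AS-FS minus DL-FS, gave 513 calls (1.07%), 226 higher in AS-FS (0.474%) and 287 lower (0.601%). Of the 394 FP probe sets 143 also passed in FS, which is 36.3% of the FP calls and 27.9% of the FS calls, and all 143 had the same direction in both tissues. The sign was shared by 348 of the 394, against 56.4% of all probe sets. The median size of the FP calls was 0.95 in FP and 0.47 in FS, taken in the FP direction, and that of the FS calls was 0.81 in FS and 0.36 in FP, so that choosing in either tissue gave the smaller value in the other. Over all 47722 probe sets the differences had an SD of 0.28 in both tissues, and they correlated across probe sets with r = 0.24 and rho = 0.19, as a description, since probe sets share arrays and are not independent. The difference between the breed differences passed the test at 0 probe sets (0%), with a smallest adjusted p of 0.19 and 2938 probe sets at an unadjusted p under 0.05, so no gene below is shown to differ by breed in one tissue more than in the other.

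**Figure D4:**
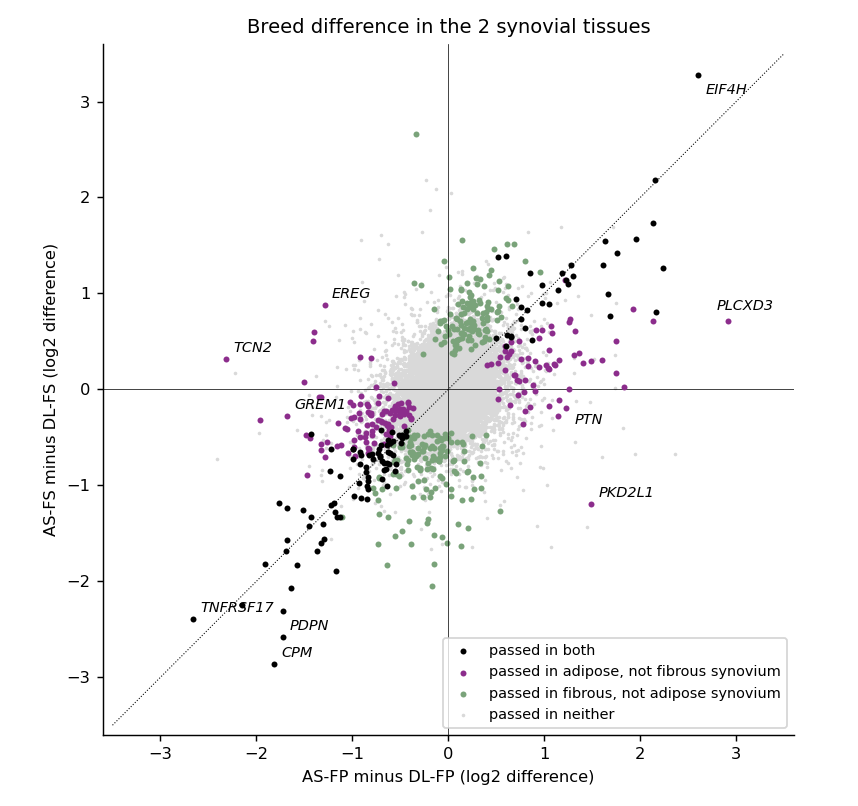
Breed difference in adipose synovium (x axis, AS-FP minus DL-FP) and fibrous synovium (y axis, AS-FS minus DL-FS), both as log2 differences, for the 25923 probe sets with a gene symbol, coloured by the tissue in which they passed the test; the dotted line marks equal differences. At the labelled probe sets EIF4H, TNFRSF17 and CPM lie far from 0 in both tissues, and PKD2L1 lies above 0 in adipose and below 0 in fibrous synovium.

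Many of the leading genes had like values in both tissues. TNFRSF17 differed by -2.66 in FP and -2.39 in FS, EIF4H by 2.61 and 3.27, AKR1A1 by -2.15 and -2.25, GRID1 by -1.91 and -1.81, NTPCR by -1.69 and -1.69, STK39 by 1.63 and 1.55 and DCP1A by 1.96 and 1.57, each passing in both. The 95% interval of the difference between the tissues was -0.85 to 0.32 for TNFRSF17 and -0.37 to 0.36 for NTPCR. PDPN (-1.72 in FP and -2.58 in FS) and CPM (-1.81 and -2.86) had the larger value in FS, and SLC5A7 (2.24 and 1.26) and GRIN3A (1.69 and 0.76 at its brighter probe set) in FP, with differences between the tissues of 0.85, 1.05, 0.98 and 0.93 (adjusted p 0.415, 0.567, 0.289 and 0.331). In other named genes the FS value was small. GREM1 was -0.28 in FS (AS-FS 6.24 and 6.34, DL-FS 6.52 and 6.62), in the FP direction with the arrays apart, and did not pass there. PDE7B was 0.00, LAMA2 0.05, PPP1R1C 0.03 and PLA2G7 0.17, each with overlapping FS arrays. PPP1R1C came close to background in FS (3.62 and 2.56 in AS-FS, 3.03 and 3.10 in DL-FS), so its value there says little. IGFBP2 was -0.47 in FS, which passed there too (adjusted p = 0.0742), and its difference between the tissues of -0.96 (interval -1.24 to -0.69) had an adjusted p of 0.19, the smallest value of the comparison, which several other probe sets also had.

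**Figure D5:**
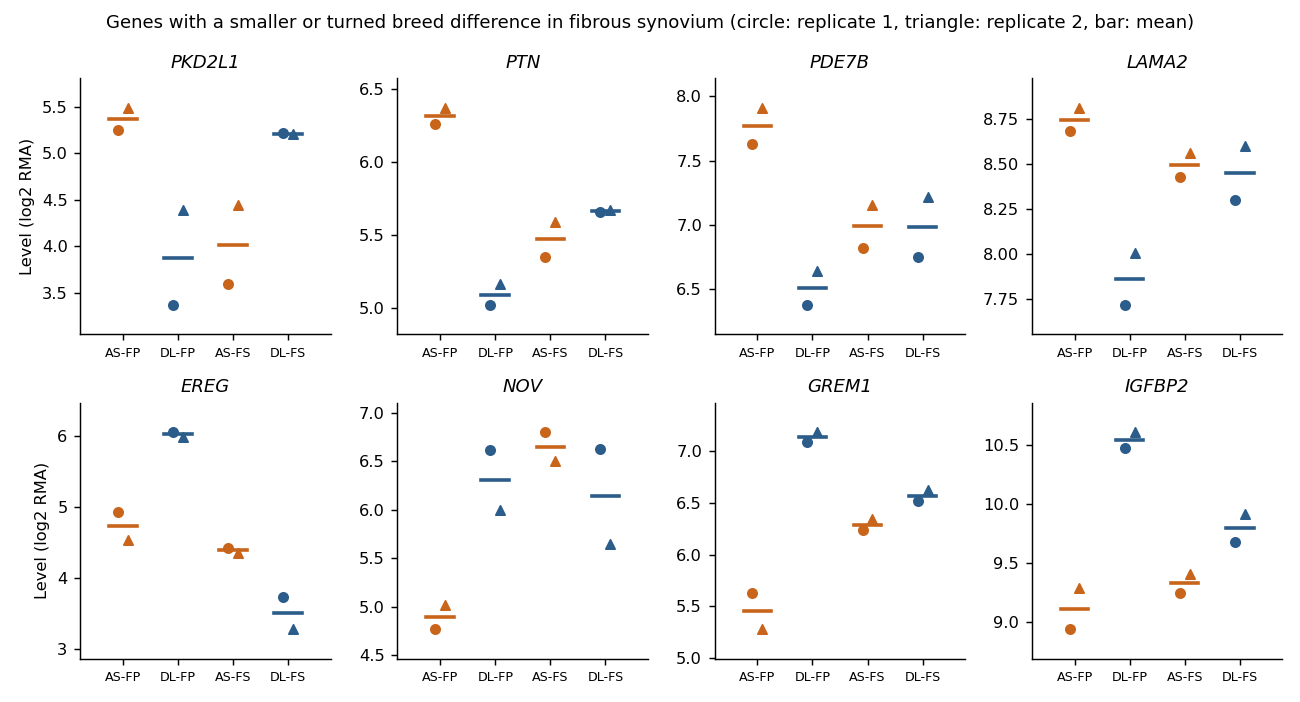
Level (log2 RMA) of 8 genes on all 8 arrays, with circles for replicate 1, triangles for replicate 2 and bars for group means; each panel has its own y axis, which does not start at 0. Each panel shows 1 probe set. In PKD2L1, PTN and EREG the breeds lie in the opposite order in the fibrous synovium groups, and in PDE7B and LAMA2 the fibrous synovium groups overlap.

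In 12 of the 394 probe sets the FS arrays also lay apart but in the opposite order, against 273 in the same order, and 5 of the 12 belonged to a named gene. In FP the arrays lay apart at 33.3% of all probe sets. The like share in FS was not counted, and neither count was tested. PKD2L1, a cation channel of the polycystin family, read 5.25 and 5.49 in AS-FP, against 3.37 and 4.39 in DL-FP (difference 1.49 ± 0.26, adjusted p = 0.0779), and 3.59 and 4.45 in AS-FS, against 5.22 and 5.21 in DL-FS (difference -1.19, adjusted p = 0.125). The highest FP breed and the highest FS breed thus differed, with a difference between the tissues of 2.69 (interval 1.83 to 3.54, adjusted p = 0.213). The other probe set of PKD2L1 differed by 0.20 in FP and did not pass, so the call rests on 1 probe set. PTN, pleiotrophin, a heparin-binding growth factor, read 6.26 and 6.37 in AS-FP, against 5.02 and 5.16 in DL-FP (difference 1.23 ± 0.13, adjusted p = 0.0121), and 5.35 and 5.59 in AS-FS, against 5.66 and 5.67 in DL-FS (difference -0.19). EREG, epiregulin, a ligand of the EGF receptor, was lower in AS-FP with both of its probe sets. One read 4.93 and 4.53 in AS-FP, against 6.05 and 5.99 in DL-FP (difference -1.29 ± 0.18, adjusted p = 0.0355), and 4.43 and 4.35 in AS-FS, against 3.74 and 3.28 in DL-FS (difference 0.88, adjusted p = 0.105). At the other EREG probe set the differences were -1.50 in FP and 0.08 in FS, so the order of the breeds in FS was not the same at both. SPOCK3, a testican of the matrix (-0.92 in FP and 0.34 in FS at that probe set), and ITGA3, an integrin chain that binds laminins (-0.80 and 0.33), completed the 5, and another SPOCK3 probe set that passed had -0.85 in FP and -0.16 in FS. NOV, a matricellular protein, was -1.41 in FP and 0.51 in FS with overlapping FS arrays. The adjusted p of the difference between the tissues ranged from 0.19 to 0.352 over the 5 probe sets in the opposite order and was 0.351 for NOV, so none passed. These genes apart from PKD2L1 and NOV were taken up after their values were seen. All 5 lost their FP call without any FP array, and PKD2L1, NOV and ITGA3 also without some FS arrays (adjusted p 0.1 to 0.459), and PKD2L1, EREG at this probe set, ITGA3 and NOV without the block (0.114 to 0.362).

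The threshold itself fell in a dense part of the list. NBL1, a BMP antagonist, was the last probe set inside it (difference -0.48, adjusted p = 0.1), and LUM, the proteoglycan lumican, the first outside (difference -0.72, adjusted p = 0.1004).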

How the data were processed

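RNA of 8 samples was hybridised to Snowball arrays of the pig, the samples being pools of undifferentiated synovial cells, 2 per group. The deposited values are log2 levels: the authors summarised probe sets by RMA after a scan with GCOS (version 1.1.1 according to the submitters' processing notes), while their methods describe a further filter on detection and SD that the table analysed here does not show. RMA makes arrays comparable but compresses low signals. The table held 47845 probe sets, of which 123 controls were left out. Groups came from the labels.

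The 47722 probe sets were fitted with limma 3.58.1 in R 4.3.3: 4 group means plus the replicate number as a block, variances moderated with a trend (residual degrees of freedom 3, prior 5), p-values adjusted by Benjamini-Hochberg within each comparison, threshold 0.1 as in the methods. Leaving an array out assumes that the remaining array of its group varies like the other groups. The replicate numbers pair the arrays: deviations from group means correlated for same-numbered arrays in 6 of 6 pairs of groups (r of 0.143 to 0.219), though no source used here says what the number stands for. The fit was tested on simulated data. Tables and figures used Python 3.11.15, numpy 2.4.6, pandas 2.3.3 and matplotlib 3.10.9. Array data carry no read depth; the number of arrays limits the precision.

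Symbols came from the platform annotation (26426 probe sets, 428 updated through RefSeq synonyms), with 56 named from a supplementary table of the study; 2004 microRNA probe sets and 5 with conflicting names were left unnamed, so 25923 had a symbol. Named are the 15 largest passing differences in each direction with arrays apart, at most 4 passing members of each of 37 gene lists, genes the article follows, and markers of cell types; within lists, each gene counts by the probe set with the highest mean level over the 8 arrays. SLC6A15 and IGFBP5, the fifth passing members of their lists, were taken up after their values were seen. So were LPL, OAS2, TNC, ADRA2A, NRP1, RPL19, CD44 and PCDH19. The same holds for genes with several passing probe sets, genes with opposite order in FS and the 2 genes at the threshold. The comparison, the lists and the rule were chosen with earlier results of these data known. A group mean at or below the highest background median (2.81) gives a bound, with its arrays raised to their background medians. Alternatives tried were no block, no trend, filters on SD and on background, quantile normalization, median centring, the methods' linear model, only the FP arrays, a threshold of 0.05, and leaving out each array.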

Additional observations from a re-analysis of the deposited data

How the results depend on the processing

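The count of 394 probe sets, 153 higher in AS-FP and 241 higher in DL-FP, depended on how the spread was estimated. With no replicate block it was 101 (38 and 63), with no variance trend 83 (38 and 45), with only the 4 FP arrays and their 2 residual degrees of freedom 51 (30 and 21), and at a threshold of 0.05 it was 203. The methods' linear model gave 0 calls in each direction, with and without the SD filter. It had no moderation and no block, and its p-values were Tukey-Kramer adjusted over the 4 groups. Before the Benjamini-Hochberg adjustment 501 of 15281 probe sets with the filter and 1004 of 47722 without it had such a p under 0.05. The SD filter, the background filter, quantile normalization and median centring gave 374, 495, 394 and 406. Leaving out 1 array in turn gave 36 to 464 calls, 16 to 182 higher in AS-FP and 20 to 282 higher in DL-FP; it leaves 1 array in a group, which lowers the degrees of freedom. In FS the count was 513, and 45 without the block, 42 without the trend, 773 above background, 0 by the methods' linear model, 1 by that model with the SD filter, and 38 to 360 without 1 array. The difference between the tissues stayed at 0 calls, apart from 1 by the methods' linear model with the SD filter; without the block its smallest adjusted p was 0.665.

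Of the 70 named probe sets that passed, 31 still passed without the block, 28 without the trend and 21 with only the FP arrays. With the SD filter 62 of 66 passed, with quantile normalization 65 and with median centring 69. None changed direction in any alternative, but this tests little. Only quantile normalization, median centring and leaving out an FP array alter the difference between the FP group means. The arrays of the breeds also lay apart from the start at 69 of the 70. Without 1 array 20 to 68 still passed, and 16 passed without each of the 8.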
